A study of Mus musculus with 11 samples.

Results

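Adra1a, Adra1b and Adrb1, the genes of 3 adrenergic receptors of the heart, were described in mouse heart RNA from 4 groups of animals. The genes were found by symbol, as 3 of the 23420 rows of the table of normalized read counts, and each met the filter on low values, a mean of at least 10. They were picked with their counts in these libraries known, so their levels and differences are given as a description, without a test. Tests were kept for the other genes of the pathway.

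The study asked how Cd36 of endothelial cells affects lipid and glucose metabolism. Cd36 encodes a surface protein that takes up long-chain fatty acids. EC cd36 KO hearts (3 libraries) lacked Cd36 in endothelial cells through Tie2-cre, whose promoter is active in endothelial and also in blood-forming cells. MHC cd36 KO hearts (3 libraries) lacked it in cardiomyocytes through MHC-cre, which by its name uses a myosin heavy chain promoter. Total cd36 ko hearts (3 libraries) were labelled as a knockout in the whole animal, without a statement of how it was made, and Control hearts (2 libraries) were labelled with no Cre. All 4 groups carry the same strain label, Cd36 loxp. Age and sex were not given in the sources used here, nor whether each library came from 1 animal, so the spread between libraries may be technical in part. The 3 comparisons with Control share its 2 libraries. The numbers in the sample titles ran from 4920 to 4923 in MHC cd36 KO and from 5213 to 5222 in Total cd36 ko. They ran from 5049 to 5086 in EC cd36 KO, with Control, at 5059 and 5061, inside that range. What the numbers stand for is not given, so a difference that goes with them cannot be told apart from one of MHC cd36 KO or Total cd36 ko hearts.

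Adrenergic receptors are the receptors of noradrenaline, released by sympathetic nerves, and of adrenaline from the adrenal gland. In the heart, the alpha-1 receptors encoded by Adra1a and Adra1b act through Gq and phospholipase C, which releases inositol trisphosphate and activates protein kinase C. The beta-1 receptor encoded by Adrb1, the main beta receptor of cardiomyocytes, acts through Gs, adenylyl cyclase and protein kinase A to raise the rate and force of contraction. G protein-coupled receptor kinases and arrestins switch occupied receptors off, and phosphodiesterases break down cyclic AMP.

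Recovered reads per library ran from 11157062 to 20105673, except in EC cd36 KO replicate 1, which held 2268403. Cd36 itself averaged 27957 ± 2278 normalized counts in EC cd36 KO, 19589 ± 3290 in MHC cd36 KO and 21188 ± 2303 in Total cd36 ko hearts (SD, n = 3 each), against 39977 ± 6438 in Control hearts (SD, n = 2). All 9 knockout libraries lay below both Control libraries. The difference passed in MHC cd36 KO hearts (log2 difference -1.03, limma adjusted p = 0.00863) but not in EC cd36 KO hearts (-0.51, limma adjusted p = 0.298). In Total cd36 ko hearts it did not pass either (-0.91, limma adjusted p = 0.0809), though it passed by DESeq2, at equal library totals and without replicates 1 of the 3 knockouts. The MHC cd36 KO call was lost without Control replicate 1 (-0.87) and in a fit to the 2 groups compared (-1.03). Hearts labelled as Total cd36 ko kept 53.0% of the Control mean, no less than the 49.0% of MHC cd36 KO hearts. Counts are per gene, and which part of Cd36 was deleted is not given in the sources used here, so these counts do not show whether the labelled knockout left a working transcript. The tissue label was met by the cardiomyocyte markers, whose 7 genes summed to between 643401 and 1219010 normalized counts per library. Sums of several cell type markers in MHC cd36 KO libraries, and some in the other knockouts, lay outside the Control range. Cardiomyocyte markers summed to 1142820 to 1219010 in EC cd36 KO and 1114930 to 1198470 in Total cd36 ko libraries, above Control. Endothelial markers summed to 14171 to 15856 in EC cd36 KO libraries, above Control, with 4 of the 6 at unadjusted p under 0.05. Smooth muscle and pericyte sums were 9039 to 9780 in EC cd36 KO (above Control) and 7768 to 7931 in Total cd36 ko libraries (below). None of these markers passed against Control by limma or edgeR, and DESeq2 passed 1, an endothelial marker in EC cd36 KO hearts. The 7 cardiomyocyte markers summed to 643401 to 956267 in MHC cd36 KO libraries, against 1063850 to 1082810 in Control libraries, with 0 of the 7 passing by limma or edgeR, 1 by DESeq2 and 2 at unadjusted p under 0.05. Fibroblast markers summed to 15328 to 26759 in MHC cd36 KO libraries, against 12702 to 13585 in Control libraries, and 1 of the 5, Col1a1, rose. Endothelial markers summed to 10951 to 11385 in MHC cd36 KO libraries, against 12602 to 13294 in Control libraries, and 0 of the 6 passed by limma, edgeR or DESeq2 or at unadjusted p under 0.05. Smooth muscle and pericyte markers summed to 9038 to 10128 in MHC cd36 KO libraries, against 8012 to 8916 in Control libraries, with Acta2 higher and Kcnj8 and Rgs5 lower. Macrophage markers summed to 5590 to 10772 in MHC cd36 KO libraries, against 3019 to 3294 in Control libraries, and all 4 of them rose by limma's test. The 6 atrial markers summed to 106182 to 216058 in MHC cd36 KO libraries, against 6097 to 10244 in Control libraries, nearly all of it Nppa. Of these, Nppa and Mybphl rose in MHC cd36 KO hearts, while Myl4 did not (mean 30.4 normalized counts, against 32.9 in Control hearts). Myl7, Sln and Bmp10 lay at or near 0 in MHC cd36 KO libraries (at most 7.71, 0.648 and 1.64 normalized counts). They were low in Control libraries too (at most 10.1, 3.11 and 0.777). In bulk heart RNA, fewer cells of a type and less RNA per cell cannot be told apart.

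Adra1b encodes the alpha-1B receptor. In GRCm38, the same assembly as mm10, with GENCODE M21 annotation, it lies on the minus strand at chr11:43774606-43901210, and its 4 transcripts join into 5 merged exons of 3.38 kb in all. RefSeq lists 2 start sites for it, and the 250 bases before each are shown because the abundance of its transcript set Control apart from all knockout groups. Capitals mark matches on either strand to GGGCGG (a GC box) or CCAAT. The first window is chr11:43836490-43836739 and the second, upstream of it, is chr11:43901238-43901487, both GRCm38.p6 and minus strand.
Adra1b downstream start: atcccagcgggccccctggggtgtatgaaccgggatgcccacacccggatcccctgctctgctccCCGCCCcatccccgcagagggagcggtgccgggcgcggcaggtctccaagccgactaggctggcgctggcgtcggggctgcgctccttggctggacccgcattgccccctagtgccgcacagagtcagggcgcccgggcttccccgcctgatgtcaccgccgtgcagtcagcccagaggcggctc
Adra1b upstream start: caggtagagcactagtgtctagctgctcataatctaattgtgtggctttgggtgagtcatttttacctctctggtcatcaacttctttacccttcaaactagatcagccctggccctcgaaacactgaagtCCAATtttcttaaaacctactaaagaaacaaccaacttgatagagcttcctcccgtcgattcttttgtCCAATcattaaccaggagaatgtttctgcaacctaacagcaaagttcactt
The downstream window was 72.8% G or C and held 1 GC box. The upstream window was 41.6% G or C and held 2 CCAAT boxes. Over 32851 mouse windows of the same length, the median was 52.4% G or C, 32.7% held GGGCGG and 33.8% held CCAAT. Neither window held TGACGTCA (the cyclic AMP response element), CACGTG (an E-box) or AGAACA (the core letters of glucocorticoid response elements), letters found in 1.55%, 6.02% and 16.1% of all windows.

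Adra1b was lower in every knockout library than in either Control library. It had 266, 295 and 309 normalized counts in EC cd36 KO hearts, 257, 409 and 438 in MHC cd36 KO hearts and 299, 277 and 339 in Total cd36 ko hearts, against 648 and 646 in Control hearts. The highest of the 9 knockout values was thus well under both Control values. Such a separation in the lower direction was found for 2.09% of the 12976 genes that met the filter. The means were 290 ± 21.8 in EC cd36 KO, 368 ± 97.0 in MHC cd36 KO and 305 ± 31.2 in Total cd36 ko hearts (SD, n = 3 each), against 647 ± 1.82 in Control hearts (SD, n = 2). These are 44.8%, 56.8% and 47.1% of the Control mean. The value of EC cd36 KO replicate 1 rested on 44 reads, whose exact Poisson 95% interval, for counting error only, spans 193 to 357 normalized counts and ends below both Control values.

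The log2 differences of Adra1b from Control, on the log2(value + 1) scale, were -1.16 in EC cd36 KO, -0.85 in MHC cd36 KO and -1.09 in Total cd36 ko hearts, with an SE of 0.19 each. Of all tested genes, 1.18%, 1.93% and 0.486% had a lower difference in those comparisons. The differences lay past the threshold used for all genes, a limma adjusted p under 0.05, in EC cd36 KO and MHC cd36 KO hearts but not in Total cd36 ko hearts. That threshold was passed by 0.316% of genes in EC cd36 KO, 5.7% in MHC cd36 KO and 0.0848% in Total cd36 ko hearts. Since the gene was chosen for these values, nothing further is read from that. With any one library left out, the difference stayed between -1.20 and -1.10 in EC cd36 KO, between -0.995 and -0.61 in MHC cd36 KO and between -1.17 and -1.02 in Total cd36 ko hearts.

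Among the knockouts, the Adra1b libraries overlapped in each pair of groups. EC cd36 KO minus MHC cd36 KO was -0.31, Total cd36 ko minus EC cd36 KO was 0.07, and Total cd36 ko minus MHC cd36 KO was -0.24, with an SE of 0.17 each. With any one library left out, these ranged from -0.55 to -0.16, from -0.0070 to 0.14 and from -0.48 to -0.092, with both ends of the MHC cd36 KO ranges set by leaving out its replicate 1 (lowest) or 3 (highest). MHC cd36 KO replicate 1, at 257 normalized counts, was the lowest of all 11 libraries, while the other MHC cd36 KO libraries, at 409 and 438, were the highest of the 9 knockouts. Replicate 1 also had the lowest cardiomyocyte marker sum of all libraries (643401). Its fibroblast (26759), macrophage (10772) and atrial (216058) marker sums were the highest. The part of this makeup in its Adra1b count was not tested. In order of means, Control stood above MHC cd36 KO without overlap, and MHC cd36 KO, Total cd36 ko and EC cd36 KO followed with overlapping ranges.

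**Figure D1:**
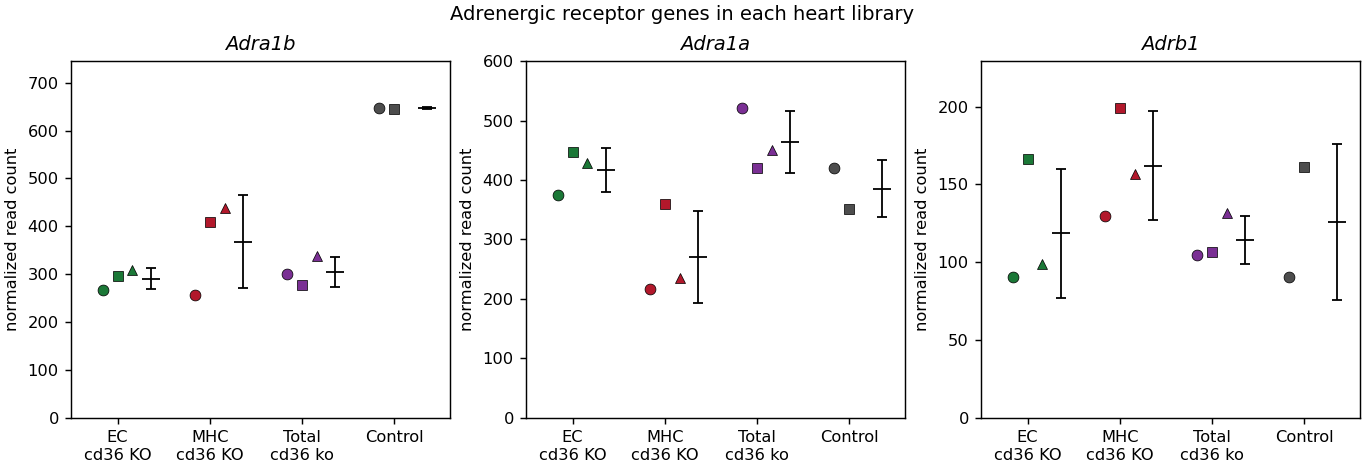
Normalized read counts of Adra1b, Adra1a and Adrb1 in each library (circles, squares and triangles are replicates 1, 2 and 3), with the mean and SD of each group as a bar; the y axis starts at 0 in each panel. All 9 knockout libraries lie below the 2 Control libraries for Adra1b, the MHC cd36 KO libraries lie lowest but for an overlap with Control for Adra1a, and the groups overlap for Adrb1.

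Adra1a encodes the alpha-1A receptor and lies at chr14:66635251-66771168 on the plus strand (GRCm38), with 5 merged exons of 8.73 kb from 6 transcripts. Its counts did not follow those of Adra1b. It had 375, 447 and 428 normalized counts in EC cd36 KO hearts, 217, 360 and 235 in MHC cd36 KO hearts and 522, 419 and 450 in Total cd36 ko hearts, against 420 and 351 in Control hearts. The MHC cd36 KO libraries held the lowest values, and 1 of them lay above the lower Control library. The means were 416 ± 37.3 in EC cd36 KO, 271 ± 78.1 in MHC cd36 KO and 464 ± 52.5 in Total cd36 ko hearts (SD, n = 3 each), against 385 ± 48.5 in Control hearts (SD, n = 2).

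The log2 differences of Adra1a from Control were 0.11 in EC cd36 KO, -0.54 in MHC cd36 KO and 0.27 in Total cd36 ko hearts (SE 0.19 each), none of them past the threshold. With any one library left out, they ranged from -0.015 to 0.24 in EC cd36 KO, from -0.76 to -0.40 in MHC cd36 KO and from 0.14 to 0.39 in Total cd36 ko hearts. The wider gaps lay among the knockouts. EC cd36 KO minus MHC cd36 KO was 0.65 and Total cd36 ko minus MHC cd36 KO was 0.81 (SE 0.17 each), and both groups lay above every MHC cd36 KO library without overlap. Both differences were past the threshold, which 19.1% and 16.4% of genes passed in these comparisons. As for Adra1b, nothing further is read from that, because the gene was picked with its values known. Groups without overlap in that direction were found for 19.1% of genes between EC cd36 KO and MHC cd36 KO and for 19.6% between Total cd36 ko and MHC cd36 KO. Total cd36 ko minus EC cd36 KO was 0.15 (SE 0.17, between 0.066 without Total cd36 ko replicate 1 and 0.22 without its replicate 2), in a comparison where 0.0385% of genes passed. In order of means, Total cd36 ko, EC cd36 KO, Control and MHC cd36 KO each overlapped the next.

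Adrb1, the beta-1 receptor gene, lies at chr19:56722199-56733113 on the plus strand (GRCm38) with 3 merged exons of 3.38 kb from 2 transcripts. The 250 bases before its RefSeq start site, chr19:56721867-56722116 (GRCm38.p6, plus strand), are shown beside those of Adra1b to compare their composition, with capitals as above.
Adrb1: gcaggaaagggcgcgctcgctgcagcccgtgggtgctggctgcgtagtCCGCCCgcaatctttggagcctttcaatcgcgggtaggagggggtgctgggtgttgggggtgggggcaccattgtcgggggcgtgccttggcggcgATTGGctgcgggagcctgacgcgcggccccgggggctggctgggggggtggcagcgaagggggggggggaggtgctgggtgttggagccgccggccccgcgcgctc
This window was 74% G or C, close to the downstream Adra1b window, and held 1 GC box and 1 CCAAT box (read on the other strand). It held none of the other 3 motifs.

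Adrb1 had 90.6, 166 and 99.0 normalized counts in EC cd36 KO hearts, 130, 199.5 and 157 in MHC cd36 KO hearts and 104, 107 and 132 in Total cd36 ko hearts, against 90.2 and 161 in Control hearts. The 2 Control libraries span most of the range of the knockouts, so no group stood apart. The means were 119 ± 41.5 in EC cd36 KO, 162 ± 35.2 in MHC cd36 KO and 114 ± 15.2 in Total cd36 ko hearts (SD, n = 3 each), against 126 ± 50.1 in Control hearts (SD, n = 2). The log2 differences from Control were -0.08, 0.40 and -0.08 in EC cd36 KO, MHC cd36 KO and Total cd36 ko hearts (SE 0.29 each). Their direction turned on the Control library used. Without Control replicate 1 they were -0.49 in EC cd36 KO, -0.013 in MHC cd36 KO and -0.50 in Total cd36 ko hearts, and without Control replicate 2 they were 0.34, 0.82 and 0.33 in the same groups. EC cd36 KO minus MHC cd36 KO was -0.48, Total cd36 ko minus MHC cd36 KO was -0.49 and Total cd36 ko minus EC cd36 KO was -0.01 (SE 0.26 each). Leaving out a library gave ranges of -0.75 to -0.31, -0.63 to -0.33 and -0.18 to 0.26 for these. No difference of Adrb1 was past the threshold.

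**Figure D2:**
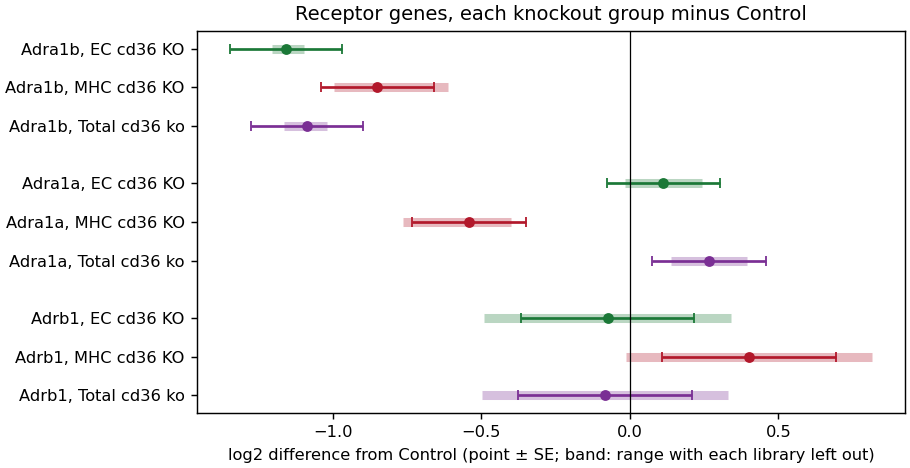
Log2 difference of each receptor gene from Control in the 3 knockout groups (point and SE), with a band for the range when each library is left out in turn; positive values are higher in the knockout. Adra1b lies between -1.16 and -0.85, Adra1a is below 0 only in MHC cd36 KO hearts apart from the left end of the EC cd36 KO band, and each Adrb1 band crosses 0.

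The balance of the alpha-1 receptor transcripts was set by both genes. Per kb of merged exon, Adra1b averaged 85.7 normalized counts in EC cd36 KO, 109 in MHC cd36 KO and 90.2 in Total cd36 ko hearts, against 191 in Control hearts. Adra1a averaged 47.7 normalized counts per kb in EC cd36 KO, 31.0 in MHC cd36 KO and 53.2 in Total cd36 ko hearts, against 44.2 in Control hearts. Adrb1 averaged 35.1 normalized counts per kb in EC cd36 KO, 47.9 in MHC cd36 KO and 33.8 in Total cd36 ko hearts, against 37.1 in Control hearts. On this scale Adra1b was the most abundant of the 3 in each group.

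The ratio of Adra1b to Adra1a per kb was 1.83, 1.71 and 1.86 in EC cd36 KO hearts, 3.06, 2.93 and 4.81 in MHC cd36 KO hearts and 1.48, 1.70 and 1.94 in Total cd36 ko hearts, against 3.99 and 4.75 in Control hearts. EC cd36 KO and Total cd36 ko libraries lay below all others, and MHC cd36 KO libraries overlapped Control libraries. Adra1b made up 64.3 ± 1.07% of the summed alpha-1A and alpha-1B transcripts per kb in EC cd36 KO, 77.6 ± 4.54% in MHC cd36 KO and 62.9 ± 3.17% in Total cd36 ko hearts (SD, n = 3 each), against 81.3 ± 1.87% in Control hearts (SD, n = 2). The sum itself averaged 133 normalized counts per kb in EC cd36 KO, 139.7 in MHC cd36 KO and 143 in Total cd36 ko hearts, against 235 in Control hearts. The knockout means of the sum lay close together, while its makeup in MHC cd36 KO hearts was nearer to that of Control hearts.

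The order of the 2 alpha-1 genes within a library, and the size of their sum, depend on the length used. With the longest annotated transcript (4.28 kb for Adra1a and 3.33 kb for Adra1b), a choice made after the data were seen, the ratio was 0.912, 0.850 and 0.927 in EC cd36 KO hearts, 1.52, 1.46 and 2.40 in MHC cd36 KO hearts and 0.737, 0.849 and 0.967 in Total cd36 ko hearts, against 1.99 and 2.36 in Control hearts. Adra1a was then the more abundant in all EC cd36 KO and Total cd36 ko libraries. The order of libraries by ratio does not depend on the length, which divides each of them by the same factor.

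**Figure D3:**
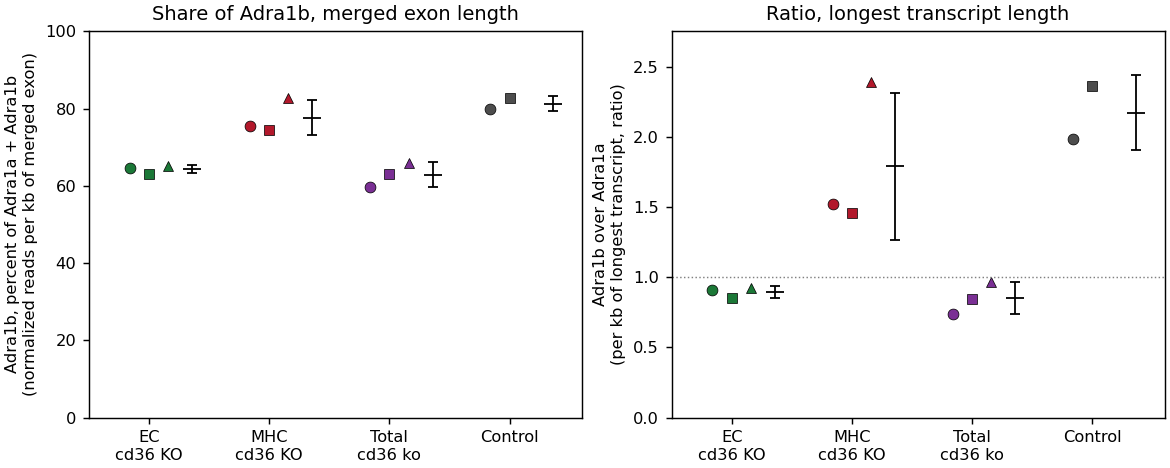
Left, Adra1b as a percent of the summed Adra1a and Adra1b counts per kb of merged exon; right, the ratio of Adra1b to Adra1a per kb of longest transcript, with a dotted line at 1. Points are libraries (circles, squares and triangles are replicates 1, 2 and 3), bars are mean and SD. EC cd36 KO and Total cd36 ko libraries lie lowest in both panels and under the dotted line, while MHC cd36 KO libraries reach the Control range.

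Cardiomyocytes carry these receptors. Cardiomyocyte marker counts were lower in MHC cd36 KO than in Control libraries, and higher than Control in EC cd36 KO and Total cd36 ko libraries. The 3 genes were therefore also set against the sum of the 7 cardiomyocyte markers, a scale chosen after the data were seen. Adra1b had 21.8, 24.8 and 27.0 normalized counts per 100000 marker counts in EC cd36 KO hearts, 39.9, 42.7 and 47.9 in MHC cd36 KO hearts and 24.96, 24.9 and 29.8 in Total cd36 ko hearts, against 60.9 and 59.6 in Control hearts. All knockout libraries stayed below Control on this scale, and MHC cd36 KO libraries lay between Control and the other knockouts without overlap. Adra1a had 30.7, 37.5 and 37.4 in EC cd36 KO hearts, 33.7, 37.7 and 25.7 in MHC cd36 KO hearts and 43.5, 37.6 and 39.6 in Total cd36 ko hearts, against 39.5 and 32.4 in Control hearts, per 100000 marker counts. The gaps of Adra1a between MHC cd36 KO and the other knockouts seen in the counts were thus overlaps here, though barely for Total cd36 ko. MHC cd36 KO replicate 2, at 37.65, lay just above Total cd36 ko replicate 2, at 37.62. Adrb1 had 7.43, 13.97 and 8.66 in EC cd36 KO hearts, 20.1, 20.9 and 17.2 in MHC cd36 KO hearts and 8.71, 9.56 and 11.6 in Total cd36 ko hearts, against 8.47 and 14.9 in Control hearts, per 100000 marker counts. MHC cd36 KO libraries were highest for Adrb1 on this scale. Their lower marker sums raise every gene on this scale, so the places of Adra1b and Adrb1 there rest in part on the divisor. The share of all genes that separate in this way was not computed. The part of changed cell makeup in these levels was not tested.

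**Figure D4:**
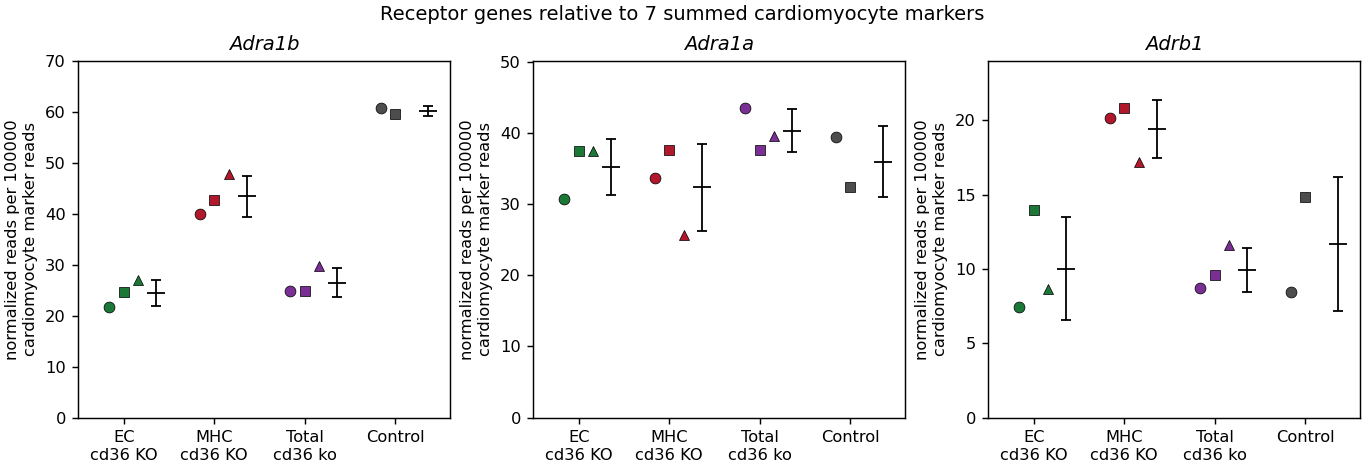
Normalized counts of the receptor genes per 100000 summed counts of 7 cardiomyocyte markers in each library (circles, squares and triangles are replicates 1, 2 and 3), with mean and SD as bars. For Adra1b the MHC cd36 KO libraries lie between the Control libraries, at 59.6 and 60.9, and the other knockouts; for Adrb1 they lie above all other libraries.

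Other adrenergic receptor genes were read at low levels. Adra1d, the alpha-1D receptor gene, whose locus is overlapped by the antisense gene Gm14285, ranged from 6.04 to 28.4 in EC cd36 KO, 27.8 to 38.9 in MHC cd36 KO and 20.4 to 26.4 in Total cd36 ko libraries, against 24.9 to 31.3 in Control libraries. Its lowest value, in EC cd36 KO replicate 1, was a single read. Adra2b ranged from 18.1 to 43.3 in EC cd36 KO, 15.4 to 18.8 in MHC cd36 KO and 15.8 to 28.0 in Total cd36 ko libraries, against 19.4 to 26.1 in Control libraries. Neither gene passed in any of the 6 comparisons by limma, whereas edgeR passed Adra2b in EC cd36 KO minus MHC cd36 KO. Adra2a, Adra2c and Adrb3 lay below the filter.

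Of 78 tested genes of adrenergic signalling other than the members, none passed between EC cd36 KO and Control hearts or between Total cd36 ko and Control hearts by limma. Unadjusted p lay under 0.05 for 4 (5.13%) in EC cd36 KO and 8 (10.3%) in Total cd36 ko hearts, beside 10.45% and 8.11% of all tested genes. For both comparisons edgeR passed 0 and DESeq2 passed 1, Pde4a in EC cd36 KO and Rgs2 in Total cd36 ko hearts. Rgs2, which speeds the shutdown of Gq, had 351, 288 and 306 normalized counts in Total cd36 ko hearts, against 1037 and 679 in Control hearts. Its limma difference was -1.41 with an adjusted p of 0.0939. Total cd36 ko minus EC cd36 KO likewise gave 0 calls by limma, and 9 genes (11.5%) had an unadjusted p under 0.05, beside 10.4% of all tested genes. There edgeR passed 0 and DESeq2 passed 1, again Rgs2.

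In MHC cd36 KO hearts, 6 of the 78 genes (7.69%) passed against Control, 3 higher and 3 lower, beside 5.7% of all genes. The count was 2 without MHC cd36 KO replicate 1, 1 without Control replicate 1, and 4 without MHC cd36 KO replicate 3 or Control replicate 2. The median difference of the 78 genes was -0.01, beside -0.00 over all genes. The count was 21 (26.9%) at unadjusted p under 0.05, beside 21.0% of all tested genes, and edgeR passed 8. Among 15 genes of the Gq arm limma passed none (4 had an unadjusted p under 0.05), and edgeR and DESeq2 passed the protein kinase C genes Prkcb and Prkcd. In the cyclic AMP arm, 1 of 20 genes (5%, beside 5.7% of all genes) rose, Adcy7, an adenylyl cyclase. It had 559, 375 and 330 normalized counts in MHC cd36 KO hearts, against 181 and 198 in Control hearts (log2 difference 1.11 ± 0.26 SE, limma adjusted p = 0.0313). Of 7 receptor kinases and arrestins 1 (14.3%) rose, Grk5, a kinase that phosphorylates occupied beta receptors. It had 1288, 1148 and 909 in MHC cd36 KO hearts, against 494 and 548 in Control hearts (1.08 ± 0.23 SE, limma adjusted p = 0.0219), and 1 of its exons overlaps Zfp950 on the other strand.

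Further from the receptor, 1 of 14 phosphodiesterase genes (7.14%) passed in MHC cd36 KO hearts. Of 11 genes for cardiac substrates of protein kinase A, 1 (9.09%) passed, beside 5.7% of all genes. Pde4c fell to 64.8, 122 and 94.9 normalized counts in MHC cd36 KO hearts, against 197 and 192 in Control hearts (log2 difference -1.09 ± 0.25 SE, limma adjusted p = 0.0299). Kcnq1, a potassium channel of repolarization, had 1215, 895 and 964 in MHC cd36 KO hearts, against 359 and 728 in Control hearts (0.99 ± 0.24 SE, limma adjusted p = 0.0324). The 2 Control libraries of Kcnq1 lay far apart.

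Among 8 genes of catecholamine synthesis, uptake and breakdown, 2 (25%) fell in MHC cd36 KO hearts, where 5.7% of all genes passed. Maob, a monoamine oxidase of the outer mitochondrial membrane, had 581, 714 and 749 normalized counts in MHC cd36 KO hearts, against 1516 and 1311 in Control hearts (log2 difference -1.06 ± 0.12 SE, limma adjusted p = 0.00140). Slc22a3, a catecholamine carrier outside neurons, had 139, 266 and 203 in MHC cd36 KO hearts, against 359 and 382 in Control hearts (-0.92 ± 0.21 SE, limma adjusted p = 0.0251). Slc22a3 was below both Control libraries in the other knockouts too, at 215 to 242 in EC cd36 KO and 215 to 249 in Total cd36 ko hearts, without passing (limma adjusted p = 0.239 and 0.366). Nerve markers were near 0, with a sum of 29.1 to 42.5 in MHC cd36 KO libraries, against 22.4 to 23.3 in Control libraries.

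Of these 6 genes, Maob alone passed whichever library was left out. Leaving out MHC cd36 KO replicate 1 or either Control library ended the calls of Adcy7 (0.89, 1.05 and 1.18), Grk5 (0.97, 1.01 and 1.16) and Pde4c (-0.85, -1.07 and -1.11), listed as MHC cd36 KO replicate 1, Control replicate 1 and Control replicate 2. Pde4c was also lost without MHC cd36 KO replicate 3 (-1.12). Slc22a3 was lost without Control replicate 1 (-0.96) or Control replicate 2 (-0.87). Kcnq1 was lost without MHC cd36 KO replicate 1 (0.86), MHC cd36 KO replicate 3 (1.03), Total cd36 ko replicate 3 (0.99) or Control replicate 1, where it fell to 0.48. Macrophage and fibroblast marker sums were also higher in MHC cd36 KO than in Control libraries, and their part in these differences was not tested.

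**Figure D5:**
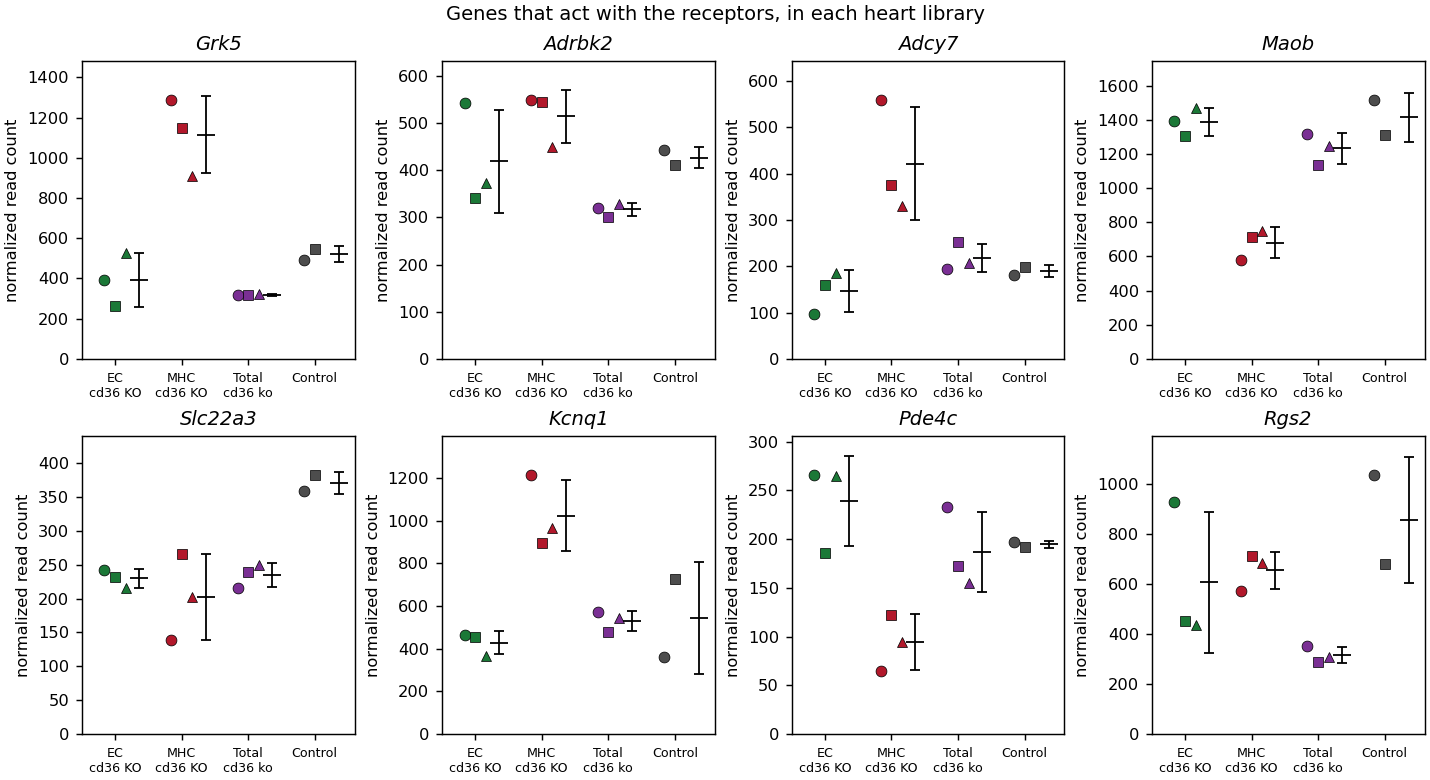
Normalized read counts of 8 genes of adrenergic signalling in each library (circles, squares and triangles are replicates 1, 2 and 3), with mean and SD as bars. Grk5, Adcy7 and Kcnq1 are higher, and Maob and Pde4c lower, in MHC cd36 KO hearts than in the other knockouts, while Slc22a3 is lower in all 9 knockout libraries than in the 2 Control libraries and Rgs2 is lowest in Total cd36 ko hearts.

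Pathway genes passed in both comparisons with MHC cd36 KO hearts. Between EC cd36 KO and MHC cd36 KO hearts 20 of the 78 genes passed (25.6%), 8 higher and 12 lower, beside 19.1% of all genes. Between Total cd36 ko and MHC cd36 KO hearts 23 passed (29.5%), 9 higher and 14 lower, beside 16.4% of all genes. Without MHC cd36 KO replicate 1, the counts were 13 and 6, and without EC cd36 KO, MHC cd36 KO and Total cd36 ko replicates 1 together they were 12 and 7. EC cd36 KO minus MHC cd36 KO gave 12 without EC cd36 KO replicate 2. Total cd36 ko minus MHC cd36 KO gave 11, 13 and 7 without Total cd36 ko replicates 1, 2 and 3, and 14 without MHC cd36 KO replicate 3. Their median differences were -0.06 and -0.07, beside -0.00 and -0.01 over all genes. These comparisons share the MHC cd36 KO libraries, in which 4 of 4 macrophage markers were higher than in either other knockout.

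Grk5 was the receptor kinase with the widest gap. It had 393, 261 and 527 normalized counts in EC cd36 KO hearts and 318, 316 and 324 in Total cd36 ko hearts, all under the lowest MHC cd36 KO value of 909. The log2 differences were -1.54 ± 0.20 SE for EC cd36 KO minus MHC cd36 KO and -1.79 ± 0.20 SE for Total cd36 ko minus MHC cd36 KO (limma adjusted p = 0.00077 and 0.00071). Adrbk2, the older symbol of the receptor kinase gene Grk3, was lower in Total cd36 ko than in MHC cd36 KO hearts (-0.69 ± 0.15 SE, limma adjusted p = 0.0119). The arrestin genes Arrb2, in EC cd36 KO hearts, and Arrb1, in Total cd36 ko hearts, were also lower than in MHC cd36 KO hearts (-0.84 and -0.33), with -0.56 for Arrb2 without MHC cd36 KO replicate 1.

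In the cyclic AMP arm, 6 of 20 genes (30%) passed between EC cd36 KO and MHC cd36 KO hearts. Between Total cd36 ko and MHC cd36 KO hearts, 7 (35%) passed. Of all genes, 19.1% and 16.4% passed in these comparisons. The adenylyl cyclase genes Adcy1, Adcy7 and Adcy8 were lower in both, by -1.41, -1.53 and -1.48 in EC cd36 KO hearts and by -1.27, -0.92 and -1.65 in Total cd36 ko hearts. Adcy8 lay near the filter, with means of 6.35 in EC cd36 KO, 5.35 in Total cd36 ko and 19.0 in MHC cd36 KO hearts. It was tested in 7 of the fits with a library left out. Its call was lost in 1 of these for EC cd36 KO and in 3 for Total cd36 ko hearts. Gnai2, an inhibitory G protein subunit, was lower in both (-0.54 and -0.51), and Rapgef3, a cyclic AMP sensor, was higher in both (0.49 and 0.39). In the Gq arm, 4 of 15 genes (26.7%) passed in each. Plcb4, a phospholipase C, was higher in EC cd36 KO and Total cd36 ko hearts than in MHC cd36 KO hearts (0.62 and 0.32), and Prkcb was lower (-0.71 and -1.01). Among 14 phosphodiesterases 3 (21.4%) and 2 (14.3%) passed, near the shares over all genes. Pde4c was higher (1.36 and 1.01) and Pde1b lower (-0.95 and -0.73) in both.

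Of 11 cardiac substrates of protein kinase A, 4 (36.4%) passed between EC cd36 KO and MHC cd36 KO hearts, beside 19.1% of all genes. Between Total cd36 ko and MHC cd36 KO hearts, 5 (45.5%) passed, beside 16.4% of all genes. Ryr2, the calcium release channel, and Cacna1c, the L-type calcium channel, were higher in both, by 0.48 and 0.70 in EC cd36 KO and by 0.44 and 0.57 in Total cd36 ko hearts, and Kcnq1 was lower in both (-1.25 and -0.94). Without MHC cd36 KO replicate 1 the Cacna1c differences were 0.46 and 0.34. The 7 cardiomyocyte markers, of which Ryr2 is one, moved the same way, with a median of 0.46 in EC cd36 KO minus MHC cd36 KO (3 of 7 higher, Myh6, Ryr2 and Tnni3) and 0.42 in Total cd36 ko minus MHC cd36 KO (1 of 7, Ryr2). Their part in these differences was not tested. Hspb6, a small heat shock protein gene, was higher in Total cd36 ko than in MHC cd36 KO hearts (0.57 ± 0.11 SE, limma adjusted p = 0.00675). Maob had 1396, 1304 and 1468 normalized counts in EC cd36 KO hearts and 1315, 1136 and 1246 in Total cd36 ko hearts, all above the highest MHC cd36 KO value of 749. The log2 differences of Maob from MHC cd36 KO were 1.03 in EC cd36 KO and 0.86 in Total cd36 ko hearts (limma adjusted p = 0.00026 and 0.00099).

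Whichever library was left out, 8 of the 20 genes passed between EC cd36 KO and MHC cd36 KO hearts (Plcb4, Adcy1, Adcy7, Grk5, Pde1b, Pde4c, Kcnq1 and Maob) and 4 of the 23 between Total cd36 ko and MHC cd36 KO hearts (Adrbk2, Grk5, Hspb6 and Maob). Each of the others was lost without at least 1 library. Prkcb in EC cd36 KO minus MHC cd36 KO, and Cacna1c and Rapgef3 in Total cd36 ko minus MHC cd36 KO, were lost in 10 of 11 fits, and Ryr2 in Total cd36 ko minus MHC cd36 KO in 8 of 11. Scaled to equal library totals, the median of all genes moved by -0.12 in EC cd36 KO minus MHC cd36 KO and by -0.14 in Total cd36 ko minus MHC cd36 KO. The splits of pathway calls were then 7 higher and 17 lower, and 4 higher and 19 lower.

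The genes whose counts ran most like each receptor's were picked by Pearson's r of log2 values over the 11 libraries, among 10346 genes with a mean of at least 50, and are given as a description. The libraries fall into 4 groups, so the points are not independent. For Adra1b they were Leprel4 (r = 0.946), Lclat1 (0.945), Acot2 (0.905) and Sybu (0.898), and Atf4 (-0.933), Cnksr1 (-0.901) and Mpdu1 (-0.888) ran most against it. Without the 2 Control libraries, the farthest from the median, the r values of the first 4 were 0.761, 0.864, 0.615 and 0.736. Spearman's rho of those 4, over all 11 libraries, ran from 0.773 to 0.909. Acot2 encodes a mitochondrial acyl-CoA thioesterase. Acot2 averaged 1335 normalized counts in EC cd36 KO, 1417 in MHC cd36 KO and 1485 in Total cd36 ko hearts, against 2865 in Control hearts. Atf4, a transcription factor of the integrated stress response, averaged 1350 in EC cd36 KO, 1198 in MHC cd36 KO and 1242 in Total cd36 ko hearts, against 954 in Control hearts.

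For Adra1a the most alike were Trmt112 (r = 0.979), Rabl3 (0.965), Tha1 (0.958), Vegfa (0.943) and Asb8 (0.942), and Mfsd10 (-0.965) and Lhfp (-0.957) ran most against it. Spearman's rho of the first 5 ran from 0.782 to 0.927. Vegfa, the vascular endothelial growth factor A gene, averaged 5021 in EC cd36 KO, 3570 in MHC cd36 KO and 5325 in Total cd36 ko hearts, against 4121 in Control hearts. Its r with Adra1a was 0.814 without MHC cd36 KO replicates 1 and 3, the libraries farthest from the median. For Adrb1 they were Dusp27 (r = 0.891), Crim1 (0.879), Rrp1b (0.874), Setd1b (0.865) and Sipa1l1 (0.858), with Spearman's rho from 0.718 to 0.945. The 3 receptor genes shared no such pattern with each other, with r of -0.04, -0.33 and 0.22 over the 11 libraries.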

How the data were processed

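RNA of 11 mouse heart libraries was made into stranded total RNA libraries after removal of ribosomal RNA, from 400 ng each, per the labels' protocols. Per the submitters' processing notes, the tools were DESeq2 (a version stated as 3.5), HTSeq 0.8.0 and TopHat2, with mm10 as build and no version for TopHat2. The counting mode, strand setting and annotation are not given in the sources used here. The deposited signal values are read counts per gene that the authors divided by 1 factor per library. Dividing each library by its smallest step gave whole reads, to within 0.05 reads, for 100% of the 257620 values. No column of values was left unused.

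The 12976 genes whose mean reached 10 were tested as log2(value + 1), with 1 limma model (3.58.1, R 4.3.3, trended prior variance) over all 11 libraries, 6 contrasts and no covariate. Each contrast's p-values were adjusted over all tested genes (Benjamini-Hochberg), and genes were called under 0.05. Lengths are from GENCODE M21 (GRCm38), and upstream windows and motif searches from RefSeq (GRCm38.p6), which matched 2 of the 3 receptor genes. The 3 genes, the pathway and marker lists and the tests were chosen with earlier results of these data known. Named pathway genes are those called, Cd36, the other receptors and, per list, those of lowest p; the results of some genes that these rules name are not reported here. The fit was tested on simulated data. Alternatives were pseudocounts of 0.5 and 5, no filter or a filter at 50, other scalings, a fit to the 2 groups compared, edgeR 4.0.16 (quasi-likelihood, TMM) and DESeq2 1.42.0 on recovered reads, each library left out in turn, and EC cd36 KO, MHC cd36 KO and Total cd36 ko replicates 1 left out together. Replicate numbers follow the order of deposit.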

Additional observations from a re-analysis of the deposited data

How the results depend on the processing

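Adra1b stayed lower than Control in all 3 knockouts under each alternative run. With every knockout value below both Control values, leaving out libraries could not change that direction, so nothing further is read from it. Counts of pathway genes called moved with the method. MHC cd36 KO minus Control gave 2 in a fit to the 2 groups and 11 by DESeq2, against 6. EC cd36 KO minus MHC cd36 KO gave 12 and Total cd36 ko minus MHC cd36 KO gave 7 without the 3 replicates 1. EC cd36 KO minus Control gave 1 by DESeq2, Total cd36 ko minus EC cd36 KO gave 1 by DESeq2, and Total cd36 ko minus Control gave 1 by DESeq2, in a fit to the 2 groups and without the replicates 1. Over all genes, MHC cd36 KO minus Control gave 61 in a fit to the 2 groups and 1276 by DESeq2, EC cd36 KO minus Control gave 22 without a filter, 162 by DESeq2 and 64 without the replicates 1, and Total cd36 ko minus Control gave 7 without a filter, 26 at equal library totals, 93 by DESeq2 and 72 without the replicates 1. Without the replicates 1, EC cd36 KO minus MHC cd36 KO gave 1288 and Total cd36 ko minus MHC cd36 KO gave 917. Total cd36 ko minus EC cd36 KO gave 0 without a filter (limma, against 5, with 1355 at an unadjusted p under 0.05 among the genes filtered at 10), 3 at a filter of 50, 14 in a fit to the 2 groups, 70 by DESeq2, 4 by edgeR and 17 without the replicates 1. At equal library totals the calls of MHC cd36 KO minus Control split 568 higher and 237 lower, against 427 and 312, of EC cd36 KO minus MHC cd36 KO 641 and 2085, against 1131 and 1348, of Total cd36 ko minus MHC cd36 KO 547 and 1744, against 1064 and 1064, of EC cd36 KO minus Control 15 and 23, against 22 and 19, and of Total cd36 ko minus Control 11 and 15, against 8 and 3. The causes were not tested.

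With each library left out in turn, pathway calls ranged from 1 to 7 in MHC cd36 KO minus Control, 12 to 21 in EC cd36 KO minus MHC cd36 KO, 6 to 23 in Total cd36 ko minus MHC cd36 KO and 0 to 1 in EC cd36 KO minus Control and in Total cd36 ko minus Control. Calls over all genes ranged from 26 to 999 in MHC cd36 KO minus Control, 5 to 84 in EC cd36 KO minus Control, 1 to 33 in Total cd36 ko minus Control, 1455 to 2582 in EC cd36 KO minus MHC cd36 KO, 1036 to 2272 in Total cd36 ko minus MHC cd36 KO and 0 to 28 in Total cd36 ko minus EC cd36 KO. The Adrb1 difference from Control ranged from -0.49 to 0.34 in EC cd36 KO, -0.013 to 0.82 in MHC cd36 KO and -0.50 to 0.33 in Total cd36 ko hearts. Adra2b in Total cd36 ko minus MHC cd36 KO was 0.18, but -0.078 without Total cd36 ko replicate 1 (0.31 at most with a library left out) and -0.14 without the replicates 1. Cd36 in Total cd36 ko minus MHC cd36 KO was 0.12, but -0.016 at equal library totals and -0.026 without MHC cd36 KO replicate 1, and 0.20 at most with a library left out. A Control library left alone was taken to vary as the other groups do. No paired analysis was possible because the labels do not tie libraries of different groups together. The 2 Control libraries and the 2268403 reads of EC cd36 KO replicate 1 limit the precision of low genes.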
